A study of Mus musculus with 10 samples.

Results

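Germ cells of Taf4b-heterozygous mouse embryos were compared with those of Taf4b-wildtype embryos: 6 of the 10 libraries of the series, 4 heterozygous and 2 wildtype, all from female embryos at embryonic day E14.5. The members were taken by genotype label. The other 4 libraries, from Taf4b-deficient embryos, entered the model only for its estimate of spread, and their levels are given beside some genes. Both parents of each litter carried the Taf4b-deficiency mutation on a single allele and the Oct4-EGFP transgene on both, so every group, wildtype included, carries the transgene. The labels give the strain as C57BL/6 and call the heterozygous and the wildtype embryos fertile and the deficient ones infertile. Gonads were dissociated with trypsin, and live GFP-positive cells, in which the Pou5f1 locus drives GFP, were collected by flow cytometry. Whether a library held the cells of a single embryo or of several is not given in the sources used here, so the p-values measure the spread between these libraries.

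TAF4B is a subunit of TFIID, the general factor that brings RNA polymerase II to promoters, and is a relative of the widely expressed TAF4 that is enriched in germ cells. At this age female germ cells switch off the pluripotency programme, stop dividing by mitosis and enter meiotic prophase, each cell on its own schedule. Female mice without TAF4B lose their oocytes early and are infertile, whereas heterozygous animals are fertile, and the comparison asks whether their germ cells differ from wildtype at all.

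The 6 libraries held between 28949924 and 44166320 reads counted in genes, and 20317 of 55536 genes were tested. Values below are counts scaled to a common library size (CPM), unless TPM is named. The libraries differed in meiotic stage, measured as the mean log2 CPM of a list of meiotic recombination genes minus that of a list of pluripotency genes. This index was -1.55 in heterozygous 1, against 1.73, 1.40 and 1.36 in heterozygous 2, 3 and 4 and -0.10 and 0.27 in the wildtype libraries. Heterozygous 1 therefore lay before both wildtype libraries on this scale and the other heterozygous libraries after them. Litter and genotype were largely tied: heterozygous 1, 2 and 3 came from the litter dated March 7, which has no wildtype library, wildtype 2 came from March 1, and heterozygous 4 and wildtype 1 came from January 29. Heterozygous 3 also stood apart in Gm23935, a small gene whose reads resemble ribosomal RNA, at 87.4 CPM against 4503 to 5068 CPM in the other 5 libraries compared.

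Taf4b itself was not lower in the heterozygous libraries. It stood at 144.2, 223.4, 195.4 and 234.5 CPM in heterozygous 1 to 4 and at 152.3 and 207.1 CPM in wildtype 1 and 2, and the groups overlapped. The log2 fold change was 0.15 ± 0.20 (SE), with an adjusted p of 0.868 and a 95% interval from -0.29 to 0.59. The 4 deficient libraries held 56.1 to 65.0 CPM, below all 6. Gene-level counts cannot tell transcripts of the mutant allele from those of the intact one.

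With all 10 libraries in edgeR's quasi-likelihood fit, 1 gene passed an adjusted p of 0.05 (Benjamini-Hochberg), and it fell. No gene rose, so the percentage called was 0% higher and 0.00492% lower. At an unadjusted p under 0.05, a description and not a call, 1259 genes (6.2%) were higher and 427 (2.1%) lower. The size of this excess of higher genes depended on the setting. It was small without heterozygous 1 (1995 higher and 1971 lower) and with limma voom and sample weights (3071 and 2901). With upper quartile scaling the counts were 1047 and 749. It stayed large with DESeq2 (1371 and 591), without the deficient libraries (1139 and 252) and with litter date as a term (805 and 167). In 1866 genes (9.18%) every heterozygous library was above both wildtype libraries, and in 1349 (6.64%) every one was below. Fitted without the deficient libraries, the same comparison called 144 genes higher (0.732% of 19666) and 3 lower (0.0153%), and DESeq2 on 10 libraries called 424 higher and 64 lower. The 6-library count itself was 0 without wildtype 1 or without wildtype 2, 1 to 3 without heterozygous 2, 3 or 4, and 937 without heterozygous 1.

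The gene that fell was Gm8226, annotated as a processed pseudogene with a single exon, at chr9:84423984-84424781 (GRCm38), which is outside the rule for named genes and was singled out after its values were seen. It stood at 0.437, 0.286, 0.374 and 0.304 CPM in heterozygous 1 to 4, against 2.38 and 1.88 CPM in the wildtype libraries and 1.70 to 2.05 CPM in the deficient ones. All 4 heterozygous libraries were below the other 6. The log2 fold change was -2.59 ± 0.29 (SE), adjusted p = 0.0465. It also passed in the 6 libraries alone (adjusted p = 0.0255), with the stage index as a covariate (0.0429), with DESeq2 (3.95e-10) and with voom (0.00862). It did not pass with litter date as a term (0.949) or with replicate number as a block (0.196). It did not pass with any 1 of the 6 libraries left out, where the log2 fold change ran from -2.80 to -2.41. In the authors' TPM values, made by a different counting tool, the same gene stood at 155 ± 20.7 (SD, n = 4) against 260.4 ± 26.8 (SD, n = 2), and its log2 fold change of -0.75 did not pass (adjusted p = 0.146). So the level of Gm8226 in TPM was far from its level in counts, and reads of a processed pseudogene can be hard to tell from those of its parent gene, so it is reported as uncertain.

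Spen, Cdk13, Zfp318, Cpeb2 and Cdc73 had been put forward with this comparison, with their higher values already known, so the values that follow are a description. All 5 encode regulators of RNA or transcription: SPEN is a large RNA-binding repressor that recruits histone deacetylase complexes and acts in X inactivation, CDK13 is a cyclin K-dependent kinase of the RNA polymerase II tail, CDC73 is a subunit of the PAF1 elongation complex, ZFP318 is a nuclear zinc-finger protein, and CPEB2 binds U-rich elements of messenger RNAs and controls their translation. The promoters of 4 of them are shown because these genes stood higher together and TFIID assembles at such sequences. They run from 250 bases before to 50 bases after the transcription start, 5′ to 3′ on the gene's strand (RefSeq, GRCm38.p6). Capitals mark the GC box GGGCGG, the site of Sp proteins, in either orientation.
Spen: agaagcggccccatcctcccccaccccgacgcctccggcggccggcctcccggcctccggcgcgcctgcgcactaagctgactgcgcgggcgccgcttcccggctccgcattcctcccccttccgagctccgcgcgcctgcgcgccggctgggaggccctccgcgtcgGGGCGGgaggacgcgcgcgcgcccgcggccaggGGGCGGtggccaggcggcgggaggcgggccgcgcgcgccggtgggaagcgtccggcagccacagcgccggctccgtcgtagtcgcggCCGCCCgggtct
Cdk13: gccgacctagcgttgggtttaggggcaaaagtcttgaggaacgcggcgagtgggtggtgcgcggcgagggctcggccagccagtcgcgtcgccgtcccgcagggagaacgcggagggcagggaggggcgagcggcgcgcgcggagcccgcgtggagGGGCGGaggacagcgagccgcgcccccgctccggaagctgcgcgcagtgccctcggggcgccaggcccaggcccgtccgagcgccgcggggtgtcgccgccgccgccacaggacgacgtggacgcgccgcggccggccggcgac
Zfp318: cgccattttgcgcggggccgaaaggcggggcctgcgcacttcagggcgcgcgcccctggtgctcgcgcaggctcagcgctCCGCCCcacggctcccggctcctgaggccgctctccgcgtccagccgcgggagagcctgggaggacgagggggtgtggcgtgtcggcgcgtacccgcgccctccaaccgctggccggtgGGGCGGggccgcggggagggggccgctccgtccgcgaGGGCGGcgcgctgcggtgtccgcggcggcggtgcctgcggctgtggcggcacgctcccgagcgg
Cdc73: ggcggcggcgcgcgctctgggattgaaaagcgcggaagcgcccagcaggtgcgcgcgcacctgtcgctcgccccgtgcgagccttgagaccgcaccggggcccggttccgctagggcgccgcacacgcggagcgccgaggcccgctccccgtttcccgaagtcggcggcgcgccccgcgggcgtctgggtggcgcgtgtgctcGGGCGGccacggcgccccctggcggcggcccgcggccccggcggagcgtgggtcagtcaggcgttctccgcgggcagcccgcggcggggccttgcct
Spen lies at chr4:141538548-141538847 on the minus strand, Cdk13 at chr13:17805048-17805347 on the minus strand, Zfp318 at chr17:46383516-46383815 on the plus strand and Cdc73 at chr1:143702844-143703143 on the minus strand. A script found 3 GC boxes in Spen, 1 in Cdk13, 3 in Zfp318 and 1 in Cdc73, and no CCAAT or TATAAA on either strand in any of the 4. The 4 sequences were 78.3% to 81.7% G and C. Of all 32851 mouse promoters of this length in the table, 35.7% hold GGGCGG, 37.4% CCAAT and 13.6% TATAAA, counting both strands, and the median G and C content was 52.7%. Expressed genes differ from that background: the promoters that matched the tested protein-coding genes held GGGCGG in 60.2%, CCAAT in 37.8% and TATAAA in 7.48%, with a median G and C content of 60.3%. Only 79.3% of those genes matched, and 79.6% and 75% of those higher and lower at an unadjusted p under 0.05. The matched promoters of the higher genes held GGGCGG in 72.3%, CCAAT in 35.3% and TATAAA in 5.54%, with a median G and C content of 68.3%. Those of the lower genes held them in 60.5%, 37.3% and 10.3%, with a median of 61.0%. The part of G and C content in the GGGCGG shares was not tested. These shares are a description, and the difference between the sets was not tested.

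Spen, at chr4:141467890-141538597, stood at 98.9, 98.0, 92.1 and 108.6 CPM in heterozygous 1 to 4 and at 29.4 and 50.4 CPM in wildtype 1 and 2. Every heterozygous library was above both wildtype libraries, and the deficient libraries lay between at 54.3 to 70.6 CPM. The log2 fold change was 1.32 ± 0.22 (SE), a 2.49-fold difference, with an adjusted p of 0.243 with 10 libraries and 0.0646 with 6.

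Cdk13, at chr13:17710315-17805097, stood at 90.6, 84.7, 85.5 and 81.5 CPM against 23.7 and 30.9 CPM. The 4 heterozygous values were within 10 CPM of each other and far from both wildtype values, while the deficient libraries spread from 29.6 to 56.3 CPM. The log2 fold change was 1.65 ± 0.29 (SE), adjusted p = 0.243, and 0.0183 when the 6 libraries were fitted alone. Cdc73, at chr1:143598800-143702893, stood at 139.3, 104.4, 101.9 and 111.1 CPM against 32.2 and 49.2 CPM, highest in heterozygous 1. Its log2 fold change was 1.49 ± 0.29 (SE), adjusted p = 0.243 with 10 libraries and 0.0401 with 6.

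Zfp318, at chr17:46383731-46420920, stood at 185.7, 276.4, 195.4 and 259.4 CPM in heterozygous 1 to 4 against 67.2 and 81.6 CPM in wildtype 1 and 2. The groups did not overlap, although the heterozygous values varied by 45.4 CPM (SD, n = 4). The log2 fold change was 1.62 ± 0.31 (SE), adjusted p = 0.243 with 10 libraries and 0.0255 with 6. Cpeb2, at chr5:43233170-43289724, stood at 42.9, 47.2, 26.0 and 51.0 CPM against 14.9 and 17.0 CPM, lowest in heterozygous 3 but still above both wildtype values. Its log2 fold change was 1.39 ± 0.27 (SE), and it passed in neither fit (adjusted p = 0.243 and 0.114). Zbtb17 overlaps Spen on the opposite strand and B3galt2 overlaps Cdc73, and whether the counting used strand is not given in the sources used here.

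Per length of transcript, in the authors' TPM, Zfp318 was the most abundant of the 5 in heterozygous cells at 98.9 ± 24.9 (SD, n = 4), against 20.2 ± 5.23 in wildtype (SD, n = 2). Cdk13 followed at 27.3 ± 1.58 against 9.28 ± 2.09, Spen at 23.7 ± 1.06 against 8.09 ± 4.45, Cdc73 at 20.9 ± 2.18 against 7.41 ± 2.98 and Cpeb2 at 15.0 ± 3.49 against 5.25 ± 1.24. All 5 were higher in heterozygous cells on this second quantification of the same libraries too, and none passed there (adjusted p = 0.146 for each).

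**Figure D1:**
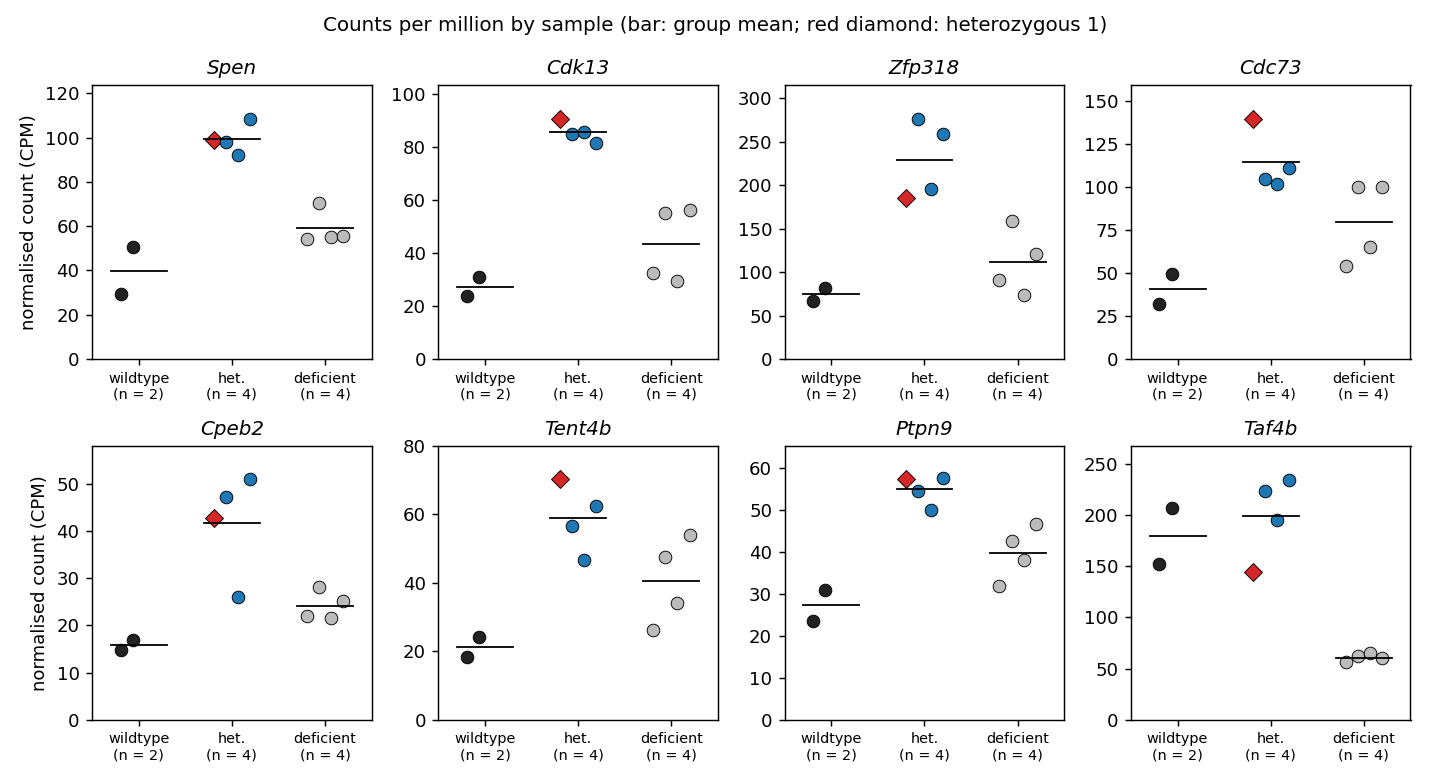
Normalised count (CPM, linear axis from 0) of 8 genes in each library by genotype, with the group mean as a bar and heterozygous 1 as a red diamond. In the first 7 genes all 4 heterozygous points lie above both wildtype points, while in Taf4b the 2 groups overlap and the deficient points sit at 56.1 to 65.0 CPM.

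Ptpn9, Shb and Tent4b completed the 8 named genes with the smallest p on the higher side. Tent4b, a noncanonical poly(A) polymerase that tails RNAs, stood at 70.1, 56.5, 46.6 and 62.3 CPM against 18.3 and 24.1 CPM (log2 fold change 1.48 ± 0.30 SE, adjusted p = 0.243, and 0.0410 in the 6 libraries alone). Shb, a signalling adaptor with an SH2 domain, stood at 38.4, 28.6, 17.0 and 24.0 CPM against 6.11 and 8.43 CPM (log2 fold change 1.89 ± 0.38 SE, adjusted p = 0.0685 in the 6 libraries). Ptpn9, a tyrosine phosphatase, stood at 57.5, 54.5, 50.1 and 57.7 CPM against 23.7 and 31.0 CPM (log2 fold change 1.01 ± 0.20 SE, adjusted p = 0.0867 in the 6 libraries). None of the 3 overlapped between the groups, which their choice by smallest p largely fixed. Of the 1259 genes higher at an unadjusted p under 0.05, 1131 did not overlap, where over all genes the share was 9.18%.

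Heterozygous 1 was read separately because of its stage. Dmc1, the meiotic strand-exchange recombinase, stood at 27.4 CPM there, the lowest of the 10 libraries, against 94.0 to 145.6 CPM in heterozygous 2 to 4 and 56.6 and 57.6 CPM in wildtype. The 5 regulator genes did not follow that order. They had been put forward with their higher values known, so the place of heterozygous 1 in them was fixed in part by that choice. It therefore shows nothing about stage. Spen in heterozygous 1 was 1.36 above the wildtype mean on the log2 scale, against 1.37 for the mean of the other 3. The pairs were 1.74 and 1.63 for Cdk13, 1.33 and 1.70 for Zfp318, 1.43 and 1.32 for Cpeb2, and 1.81 and 1.41 for Cdc73. Averaged over the 5 genes, the log2 CPM was 6.64 in heterozygous 1 and 6.38 to 6.72 in the other 3, against 4.88 and 5.33 in wildtype. The deficient libraries, of another genotype, stood at 5.5, 6.14, 5.47 and 5.97 in deficient 1 to 4, at indices of 0.12, 0.95, -1.48 and -0.29. The part of stage in these means was not tested.

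**Figure D2:**
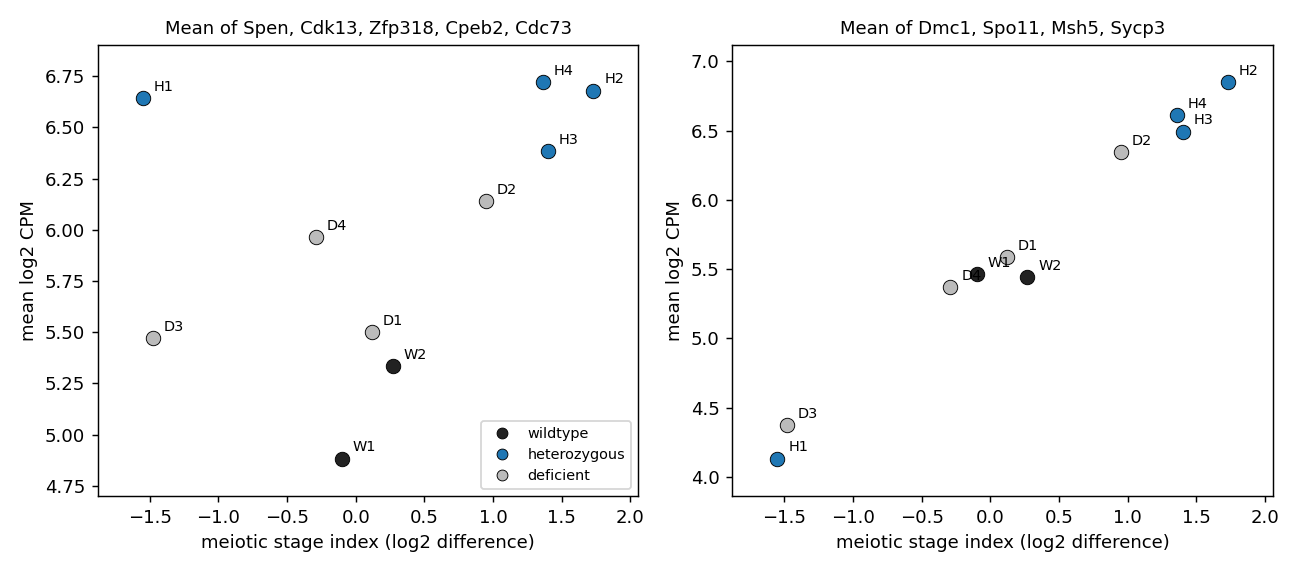
Mean log2 CPM of the 5 regulator genes (left) and of the meiotic genes Dmc1, Spo11, Msh5 and Sycp3, all but the last part of the index (right), against the meiotic stage index of each of the 10 libraries (W wildtype, H heterozygous, D deficient, with replicate number). On the left H1, at an index of -1.55, lies at 6.64, level with H2 to H4, in genes put forward with their higher values known. On the right H1 is the lowest point at 4.13.

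Which genes differed depended on heterozygous 1. Without it, 1073 of the 1259 genes higher at an unadjusted p under 0.05 were still in the higher set, which then held 1995 genes, and 392 of the 427 lower genes were in a lower set of 1971. With the stage index as a covariate, 1194 of the 1259 and 412 of the 427 had an unadjusted p under 0.05 in the same direction, in sets of 1426 higher and 880 lower genes. The 1259 and 427 genes were chosen with heterozygous 1 among the libraries, so its place in them is fixed in part by that choice and shows nothing about stage.

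Within the January 29 litter, heterozygous 4 against wildtype 1, the log2 differences were 1.88 for Spen, 1.78 for Cdk13, 1.95 for Zfp318, 1.77 for Cpeb2 and 1.79 for Cdc73, with 1 library on each side and no test. With litter date as a term the fold changes were 1.53, 1.33, 1.49, 1.47 and 1.35, and no gene was called in the whole table (805 higher and 167 lower at an unadjusted p under 0.05).

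A set of 7 lists of chromatin, transcription and RNA regulators was read beside these genes, 214 genes in all. Of them 116 were higher and 98 lower, with a median log2 fold change of 0.02, the same as the 0.02 over all genes tested. None was called, 25 were higher at an unadjusted p under 0.05 (11.7%, against 6.2% of all genes) and 1 lower. Of the 25, 4 were among the 5 genes put forward. A few members stood far higher, and the lists as wholes had medians near that of all genes.

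Among elongation factors, Cdk13 and Cdc73 led a list in which 14 of 33 genes were higher and 19 lower (median -0.06, 5 higher and 0 lower at an unadjusted p under 0.05). In the list of SPEN relatives, NCoR corepressors and m6A writers, 17 of 23 were higher (median 0.09, 6 and 0). Ncor1, which scaffolds histone deacetylase 3, stood at 140.3, 134.2, 138.6 and 144.7 CPM against 75.6 and 92.0 CPM (log2 fold change 0.74 ± 0.17 SE, adjusted p = 0.243 and 0.149 with 6 libraries). The heterozygous values of Ncor1 had an SD of 4.32 CPM (n = 4), and none reached down to the wildtype values. Among CPEB, deadenylation and germline mRNA genes, 13 of 24 were higher (median 0.02, 4 and 0), and Cnot6, a deadenylase of the CCR4-NOT complex, overlapped between the groups.

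Among histone lysine methyltransferases and demethylases, 28 of 41 were higher (median 0.16, 4 and 0 at an unadjusted p under 0.05). The libraries differed: heterozygous 2 and 4 were above both wildtype libraries in 29 and 33 of the 41 (70.7% and 80.5%). Heterozygous 1 and 3 were above both in 8 and 15 and below both in 24 and 20 (58.5% and 48.8%). Over all genes tested, 38.2% to 42.4% were above both and 37.9% to 39.1% below both in each library. Kdm1a, the H3K4 demethylase LSD1, stood at 284.6, 222.4, 261.4 and 220.1 CPM against 69.6 and 104.8 CPM (log2 fold change 1.50 ± 0.43 SE, adjusted p = 0.261 with 10 libraries and 0.0317 with 6). The deficient libraries split widely for Kdm1a, from 110.8 to 331.7 CPM. Smarca5, the ATPase of ISWI remodellers, stood at 470.3, 808.1, 788.8 and 727.1 CPM against 155.3 and 232.5 CPM (log2 fold change 1.85 ± 0.48 SE, adjusted p = 0.247 and 0.0332), in a list where 12 of 28 were higher (median -0.06). Ncoa1, a nuclear receptor coactivator, stood at 45.3, 70.1, 67.3 and 68.4 CPM against 16.8 and 18.8 CPM (log2 fold change 1.82 ± 0.42 SE, adjusted p = 0.243 and 0.0230), in a list where 14 of 28 were higher (median 0.00). Both Smarca5 and Ncoa1 were lowest among the heterozygous libraries in heterozygous 1, which was still above both wildtype libraries. Srsf2, a splicing factor of nuclear speckles, stood at 411.8, 318.0, 296.4 and 290.2 CPM against 64.8 and 137.9 CPM (log2 fold change 1.70 ± 0.49 SE, adjusted p = 0.065 with 6 libraries), while 18 of the 37 genes of its list were higher (median -0.01).

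Among promoter-binding factors of the Sp, KLF, E2F and NF-Y families, 11 of 20 were higher (median 0.01). E2f1, a driver of S-phase genes, stood at 140.0, 114.9, 158.3 and 119.5 CPM against 29.8 and 51.8 CPM (log2 fold change 1.71 ± 0.42 SE, adjusted p = 0.244 with 10 libraries and 0.0370 with 6). Klf13 stood at 29.1, 25.7, 22.1 and 29.0 CPM against 15.5 and 17.2 CPM (log2 fold change 0.70 ± 0.18 SE, adjusted p = 0.247 and 0.388). No library of either genotype overlapped the other group in these 2 genes, which had the smallest p of the list. They were its only higher genes without overlap, 2 of 20, where over all genes the share was 9.18%.

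**Figure D3:**
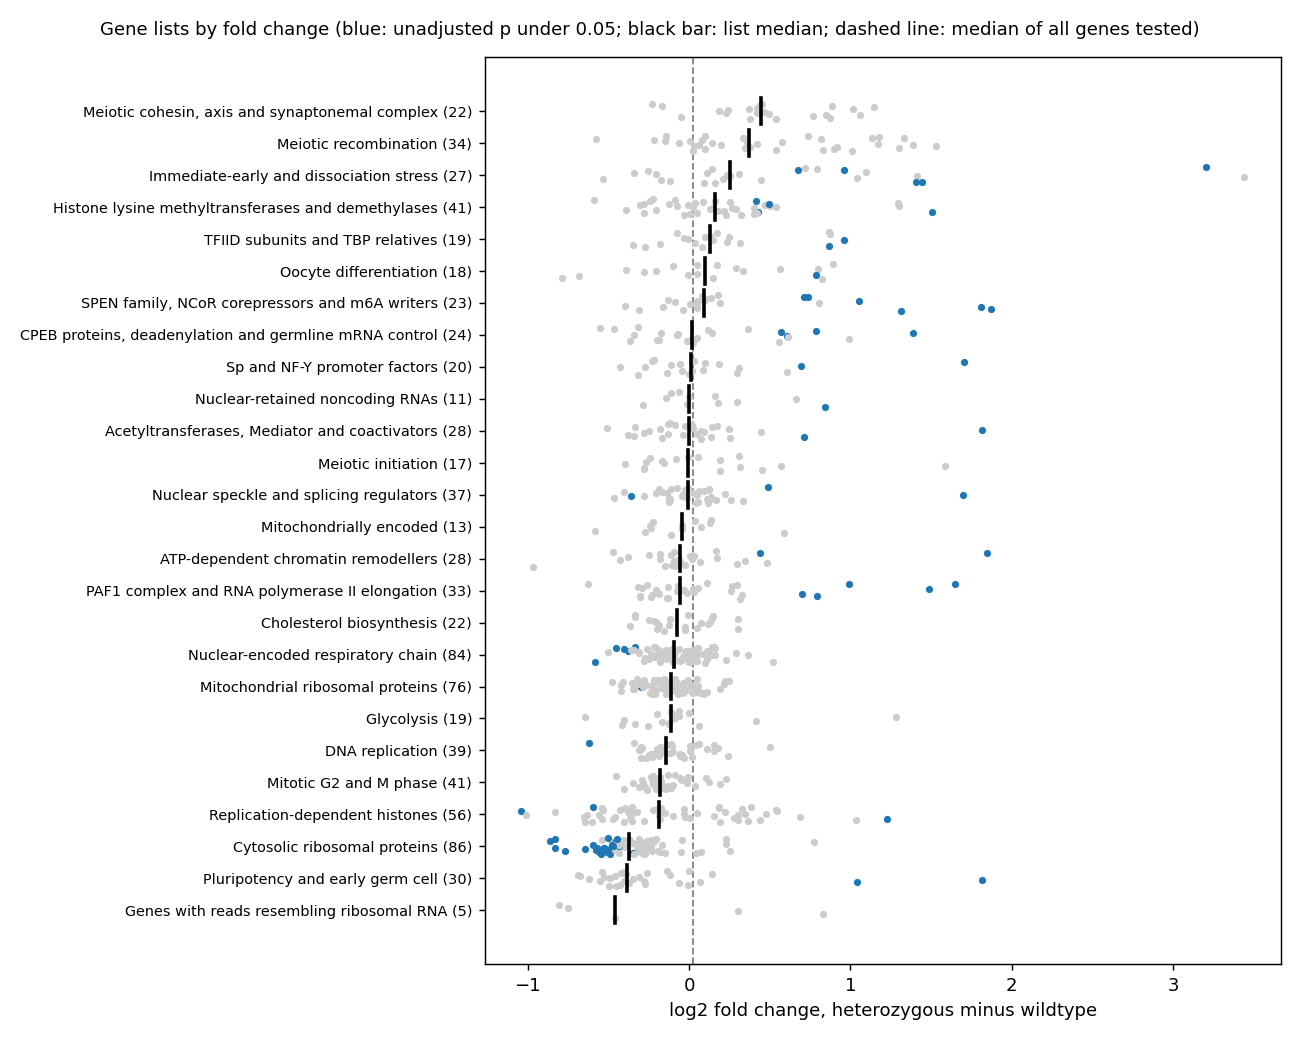
Log2 fold change (heterozygous minus wildtype) of each tested member of 26 gene lists, the number of members in parentheses, with list medians as black bars and members at an unadjusted p under 0.05 in blue. The regulator lists have medians near 0 with a few members between 1 and 2, whereas 80 of 86 cytosolic ribosomal protein genes lie to the left of 0.

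Cytosolic ribosomal protein genes were lower as a group in 3 of the 4 heterozygous libraries. Of 86 cytosolic ribosomal protein genes, 80 were lower and 6 higher, with a median log2 fold change of -0.37, and none was called. At an unadjusted p under 0.05, 29 were lower and 0 higher, and 19 did not overlap between the groups (over all genes, 6.64%). The mean log2 CPM of the list was 8.16 in heterozygous 1, inside the wildtype values of 8.197 and 8.002, and 7.66, 7.39 and 7.66 in heterozygous 2, 3 and 4. Heterozygous 1 was below both wildtype libraries in 20 of the 86 genes (23.3%), the other 3 in 77, 80 and 81 (89.5%, 93% and 94.2%), where over all genes tested the share was 37.9% to 39.1% in each library. The 3 libraries with the lower level were those of later stage, and the part of stage in it was not tested. Without heterozygous 1 the median was -0.59, with 83 of 86 lower.

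Rpl6, of the large subunit, stood at 400, 233.3, 251.8 and 230.8 CPM in heterozygous 1 to 4 against 516.1 and 436.0 CPM (log2 fold change -0.77 ± 0.21 SE, adjusted p = 0.247). Rpl23a stood at 71.2, 49.6, 42.3 and 47.3 CPM against 103.4 and 87.4 CPM (log2 fold change -0.86 ± 0.21 SE, adjusted p = 0.243). In both genes heterozygous 1 was the library nearest to wildtype. Ribosomal protein genes have many processed pseudogenes, Rpl17-ps5 among the 8 lower genes, and their counts are uncertain for that reason. Mitochondrial ribosomal proteins (60 of 76 lower, median -0.11) and the nuclear-encoded respiratory chain (55 of 84 lower, median -0.09) had 1 and 5 members lower at an unadjusted p under 0.05. Atp5g2, a subunit of ATP synthase, stood at 206.9, 166.6, 124.9 and 158.9 CPM against 260.6 and 231.3 CPM (log2 fold change -0.58 ± 0.19 SE, adjusted p = 0.318).

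The other lower genes were of several kinds. In the 6 libraries alone Plp2, Kifc1, Rpl23a, Phldb2, Tspan9 and Rpl6 did not pass either (adjusted p from 0.118 to 0.402). Plp2, a membrane protein on the X chromosome, stood at 134.5, 105.6, 105.9 and 114.3 CPM against 208.4 and 181.1 CPM (log2 fold change -0.76 ± 0.14 SE, adjusted p = 0.243). Phldb2 stood at 10.6 to 12.4 CPM against 18.0 and 18.3 CPM, and Tspan9 at 8.65 to 10.9 CPM against 13.9 and 18.5 CPM. Kifc1, a minus-end kinesin of the spindle, stood at 7.60, 3.93, 1.67 and 5.24 CPM against 19.6 and 21.3 CPM (log2 fold change -2.15 ± 0.52 SE, adjusted p = 0.243). Kifc1 has a near-identical copy, Kifc5b, so its reads could be split between the copies and its value is uncertain.

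**Figure D4:**
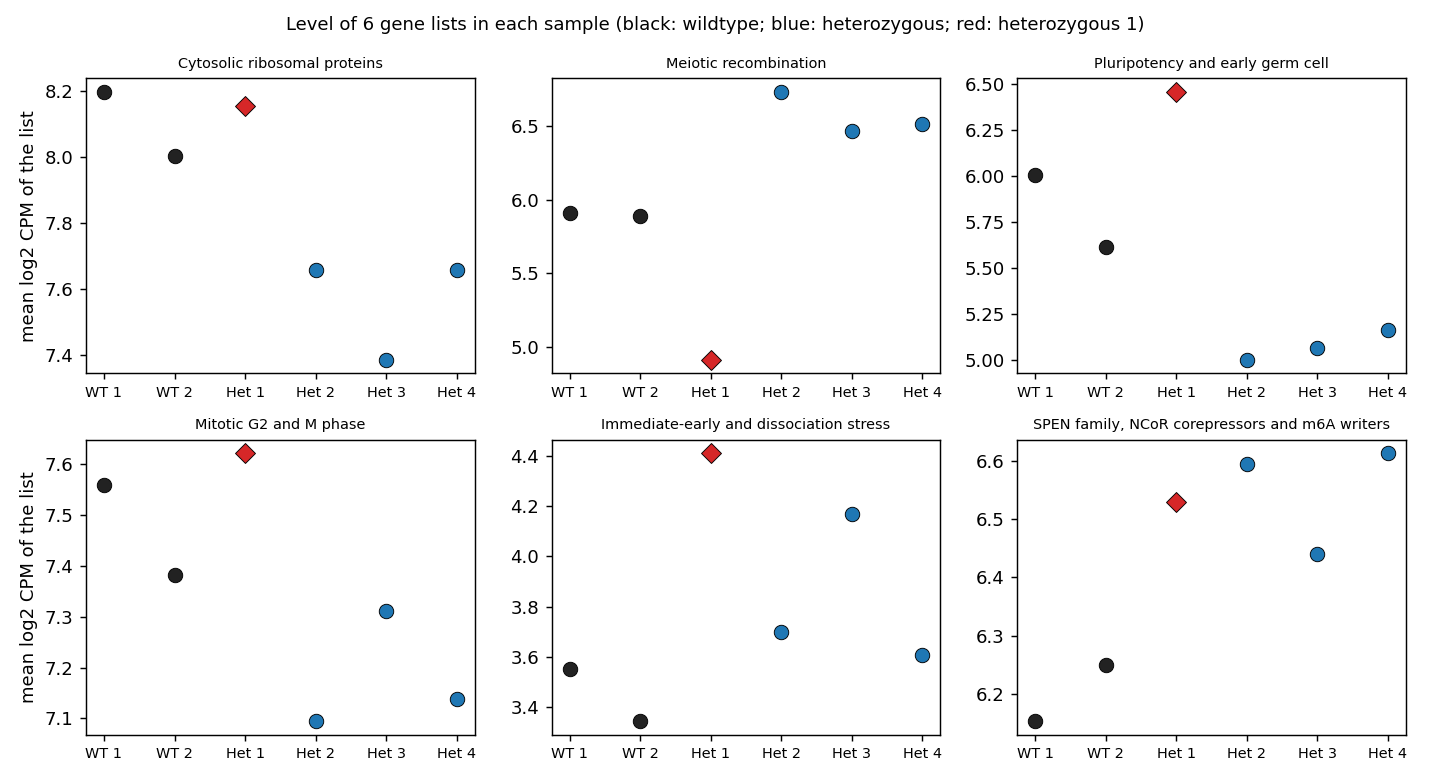
Mean log2 CPM of 6 gene lists in the 2 wildtype and 4 heterozygous libraries, each panel on its own scale. Heterozygous 1 (red diamond) sits with or beyond wildtype for ribosomal proteins, recombination, pluripotency and mitosis. In the list of SPEN relatives its mean, at 6.53, sits with the other heterozygous libraries, where wildtype stands at 6.15 and 6.25. By gene, heterozygous 1 was above both wildtype libraries in 10 of those 23 (43.5%, against 38.2% of all genes) and below both in 8 (34.8%, against 38.2%). Heterozygous 2, 3 and 4 were above both in 15, 13 and 14 (over all genes, 40.5% to 42.4%).

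Meiotic and pluripotency genes stood on opposite sides of wildtype in heterozygous 1 and in the other 3. The recombination and pluripotency lists make up the stage index, so their order in part restates it. Of 34 meiotic recombination genes, 29 were higher over the 4 libraries (median 0.37), none was called and 0 of either sign had an unadjusted p under 0.05. Heterozygous 1 was below both wildtype libraries in 31 of the 34, while heterozygous 2, 3 and 4 were above both in 28, 28 and 24. Over all genes tested, 38.2% were below both in heterozygous 1 and 40.5% to 42.4% above both in the other 3. Spo11, which makes the breaks that start recombination, stood at 13.2 CPM in heterozygous 1 and 56.7 to 74.3 CPM in the other 3, against 22.4 and 27.8 CPM in wildtype. Msh5, a crossover factor, stood at 6.73 CPM and 43.1 to 70.4 CPM, against 17.8 and 21.2 CPM. Stra8, the gatekeeper of meiotic entry, stood at 238.6 CPM in heterozygous 1 and 730.5 to 938.8 CPM in the other 3, against 588.1 and 609.4 CPM (log2 fold change 0.19 ± 0.53 SE, adjusted p = 0.944), and without heterozygous 2 the fold change was -0.002. In the cohesin, axis and synaptonemal complex list 19 of 22 were higher (median 0.45), and Sycp3, of the chromosome axis, stood at 39.1 CPM in heterozygous 1 and at 200.1 to 286.3 CPM in the other 3 against 126.3 and 142.1 CPM.

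Of 30 pluripotency and early germ cell genes, 26 were lower (median -0.38). Pou5f1, the gene behind the sorting transgene, stood at 122.0 CPM in heterozygous 1 and at 36.1, 36.1 and 45.2 CPM in the other 3, against 96.9 and 66.7 CPM in wildtype. Klf2 and Sox2 were higher instead. Klf2, a KLF transcription factor, stood at 47.1, 32.1, 31.9 and 22.4 CPM against 11.1 and 7.81 CPM (log2 fold change 1.82 ± 0.44 SE, adjusted p = 0.243 and 0.0627 with 6 libraries), and Sox2 at 66.8, 26.0, 27.8 and 27.0 CPM against 18.1 and 17.8 CPM (log2 fold change 1.04 ± 0.42 SE, adjusted p = 0.508). For Sox2 a single library, heterozygous 1, carried much of the difference, and the log2 fold change without it was 0.55. Mitotic G2 and M phase genes were lower in 36 of 41 (median -0.18). Heterozygous 1 was above both wildtype libraries in 26 of the 41 (63.4%, against 38.2% of all genes).

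TFIID subunits and TBP relatives were higher in 13 of 19 (median 0.13), and none was called. Taf10 stood at 135.6, 152.3, 157.0 and 141.8 CPM against 51.6 and 99.1 CPM (log2 fold change 0.96 ± 0.26 SE, adjusted p = 0.247 and 0.256 with 6 libraries), and Taf5, a scaffold of the complex, at 221.4, 200.9, 263.1 and 199.0 CPM against 87.9 and 154.8 CPM (log2 fold change 0.86 ± 0.26 SE, adjusted p = 0.290 and 0.315). Both were above wildtype in heterozygous 1 as in the other 3, unlike most of the list. By gene, heterozygous 1 was above both wildtype libraries in 4 of the 19 (21.1%) and below both in 13 (68.4%, against 38.2% of all genes). Heterozygous 2, 3 and 4 were above both in 14, 14 and 13 (over all genes, 40.5% to 42.4%). Taf7l and Taf9b stood on opposite sides of wildtype in heterozygous 1 and the other 3. Taf7l stood at 22.5 CPM in heterozygous 1 and 347.9 to 479.7 CPM in the other 3, against 151.3 and 177.7 CPM. Taf9b stood at 10.0 CPM and 54.3 to 64.1 CPM, against 22.4 and 28.6 CPM. Tbpl1, a TBP relative, was lower in all 4 heterozygous libraries, at 49.0, 37.3, 45.6 and 41.8 CPM against 58.4 and 52.2 CPM (log2 fold change -0.35 ± 0.16 SE, adjusted p = 0.628).

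Because the genes put forward are long, the fold changes of 14843 protein-coding genes were read in 5 length classes of equal size. Spen, Cdk13, Zfp318 and Cdc73 lie between the 96.2 and the 98.7 percentile of summed exon length, with 14089, 13456, 13804 and 17613 bases, and Cpeb2 at the 81.6 percentile with 7816 bases. The median log2 fold change went from -0.04 in the shortest class to 0.01 in the longest. The share of genes higher at an unadjusted p under 0.05 went from 3.57% to 8.18%, and the share lower from 3.47% to 0.909%. Without heterozygous 1 the shortest and longest classes held 202 and 367 higher genes, against 106 and 243 with it, and 413 and 242 lower genes, against 103 and 27. By genomic span the shares were 5.25% and 8.86% higher and 3.37% and 1.48% lower. The level of the longest class minus the shortest, per library, was 1.76, 1.89, 1.47 and 1.96 in heterozygous 1 to 4 and 1.62 and 1.78 in wildtype, so the groups overlapped and heterozygous 3 was the lowest. Between heterozygous 4 and wildtype 1, of 1 litter, the medians of the longest and shortest class differed by 0.36. Longer genes collect more reads, which lowers their sampling error, and the part of this in the shares was not tested. The shares also differed in 5 classes of G and C content of the longest transcript, added after seeing the data. The highest class held 9.5% higher genes and the other classes 4.85% to 6.4%. The share lower was 1.85% in the highest class and 0.91% to 2.63% in the others.

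**Figure D5:**
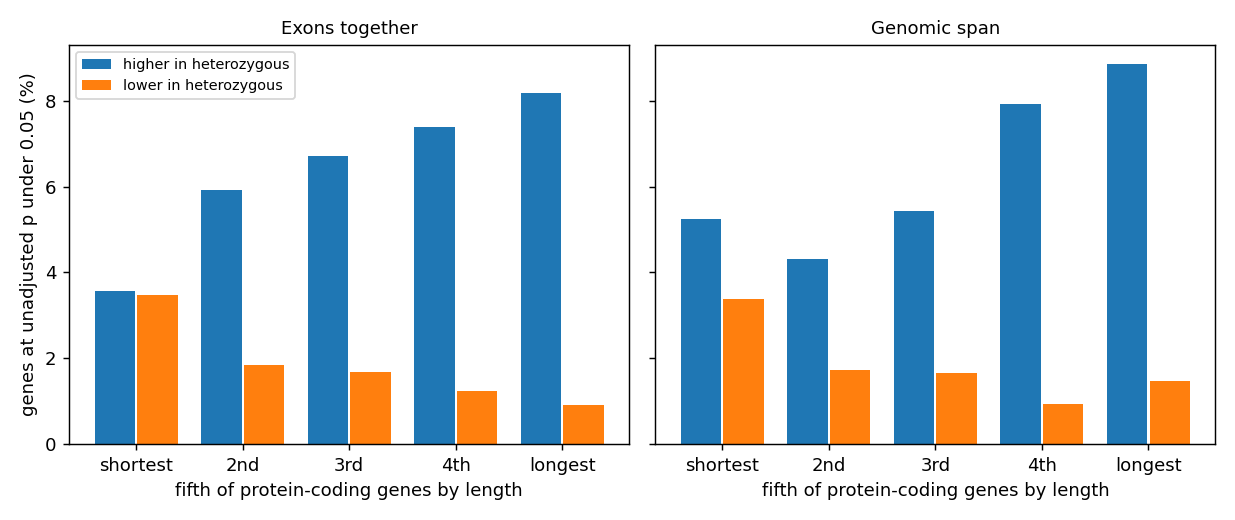
Percentage of protein-coding genes at an unadjusted p under 0.05 that were higher (blue) or lower (orange) in heterozygous libraries, in 5 equal classes of summed exon length (left) and genomic span (right). By exon length the share higher goes from 3.57% to 8.18% and the share lower from 3.47% to 0.909%.

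Germ cell markers were abundant in every library, with a summed level of 4925 to 5917 CPM in heterozygous and 5394 and 5694 CPM in wildtype over 9 genes, 4 higher and 5 lower. Markers of other gonadal cells were low. Macrophage and blood markers summed to 10.5 to 22.1 CPM in heterozygous and 21.0 and 25.3 CPM in wildtype, and 13 of 15 were lower. Stroma and mesothelium markers summed to 9.34 to 12.9 CPM against 14.1 and 15.2 CPM, with 8 of 8 tested genes lower, and erythroid markers to 0.815 to 11.5 CPM against 14.3 and 15.6 CPM, with 5 of 6 lower. Pregranulosa markers summed to 20.9 to 42.6 CPM against 18.6 and 48.0 CPM, and endothelial markers to 71.7 to 390.8 CPM against 180.6 and 233.4 CPM. The endothelial sum was led by Pecam1, which early germ cells also express. No marker of the 6 lists was at 0 reads in all 6 libraries, and 7 were too low to be tested. The part of these cells in the gene results was not tested, and in sorted bulk samples fewer cells of a type and less RNA per cell cannot be told apart.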

How the data were processed

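RNA of sorted germ cells was sequenced in 10 libraries, and reads per gene were deposited by the authors as raw counts (whole numbers, not normalised) together with TPM values deposited in a second table. Per the submitters' processing notes, the tools were Trim Galore 0.5.0, FastQC 0.11.5, HISAT2 2.1.0, SAMtools 1.9, StringTie 1.3.3b, featureCounts of Subread 1.6.2 and DESeq2, on GRCm38. Not given in the sources used here are the counting's annotation and strand setting. A table of fold changes that the authors deposited was not used, since its contrast is not stated.

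Genes were kept by filterByExpr with genotype as the group (20317 kept), scaled by TMM and tested with edgeR 4.0.16 (quasi-likelihood fit of all 10 libraries in R 4.3.3, contrast heterozygous minus wildtype), with Benjamini-Hochberg adjustment over all genes tested and a threshold of 0.05. CPM were taken over the tested genes, and log2 CPM with a prior count of 2. The means of the 5 genes put forward and of Dmc1, Spo11, Msh5 and Sycp3 used log2 CPM without a prior count. Standard errors came from the F statistic. TPM were tested with limma 3.58.1 on log2(TPM + 0.1), where the pseudocount makes changes of low genes look smaller. Gene positions and lengths came from GENCODE M21, to which all 55536 identifiers matched, and promoters from RefSeq. Alternatives covered scaling, filters, DESeq2 1.42.0, limma voom, litter date, stage, fewer libraries and TPM. The procedure was tested on simulated data.

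Named genes were Taf4b, the 5 genes put forward with the comparison, up to 12 called genes a direction (filled to 8 by smallest p, at 5 CPM or more, with an assigned symbol), up to 3 called or the 2 lowest-p members of each of 32 lists, and a fixed set of germ cell and TFIID genes, of which those the results turn on are printed. A gene that the rule names is not reported here. Gm8226 and Pecam1 fall outside this rule and were singled out after their values were seen. The members, genes and lists were chosen with earlier results of these data known.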

Additional observations from a re-analysis of the deposited data

Results flagged for a closer look

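Among the 4 heterozygous libraries, a value was marked where 1 library lay far outside the other 3 (gap over range above Dixon's 95% critical value for 4 samples, which chance passes in about 1 of 20 groups). This marked 15 of the 77 values looked at, which are not independent of each other. Heterozygous 1 was marked for the stage index, at -1.55 against 1.36 to 1.73. The mean log2 CPM of its meiotic recombination list was 4.91 against 6.47 to 6.73, that of cohesin, axis and synaptonemal complex genes 4.77 against 6.41 to 6.61, and that of pluripotency genes 6.46 against 5.00 to 5.16. Pou5f1 stood at 122 CPM in it against 36.1 to 45.2 CPM and Sox2 at 66.8 CPM against 26.0 to 27.8 CPM. Rpl6 stood at 400 CPM against 230.8 to 251.8 CPM, Rpl17-ps5 at 22.4 CPM against 12.6 to 12.9 CPM and Ncoa1 at 45.3 CPM against 67.3 to 70.1 CPM.

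Heterozygous 3 was marked for Gm23935, at 87.4 CPM against 4503 to 4756 CPM, and for the list of genes whose reads resemble ribosomal RNA, at 6.43 against 10.2 to 10.4 in mean log2 CPM. Its mitochondrially encoded genes stood at 6.15 against 7.62 to 7.89. Some of the regulator lists were marked in the same library: elongation factors at 6.29 against 6.39 to 6.41, chromatin remodellers at 6.13 against 6.46 to 6.53, and acetyltransferases, Mediator and coactivators at 6.07 against 6.39 to 6.45.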

How the results depend on the processing

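The count of called genes, 1 with all 10 libraries, was 268 without a filter on low counts (40618 genes), 0 at a mean of at least 5 CPM, 488 with DESeq2, 1063 with limma voom and sample weights, 147 in the 6 libraries alone, 186 without the 3 libraries low in Gm23935, 3 with the stage covariate, 0 with litter date as a term, 0 with either TPM pseudocount and 0 with each library left out. It stayed at 1 under the other 3 scalings. In the 6 libraries with the stage covariate it was 270, and leaving out each library from the 6-library fit without that covariate, whose count was 147, gave 0 to 937, both chosen after seeing the data. The cause of these differences was not tested. The count at an unadjusted p under 0.05, 1686 (1259 higher and 427 lower), was 1115 at 5 CPM, 5972 with voom, 972 with litter date and 665 (without wildtype 1) to 3966 (without heterozygous 1) with a library left out. It split into 1456 higher and 830 lower without a filter and 1426 and 880 with the stage covariate. With the replicate block the counts were 0 called and 1178 at an unadjusted p under 0.05. Heterozygous and wildtype share 2 replicate numbers, and the deviations of same-numbered libraries correlated at 0.097 and 0.085. With 2 wildtype libraries their deviations mirror each other, so these values cannot show whether same-numbered libraries are paired. The same-numbered libraries came from litters of different dates.

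Over 21 alternatives, Spen, Cdk13, Zfp318, Cpeb2 and Cdc73 were higher in heterozygous cells in each, with log2 fold changes from 0.98 (Spen, without wildtype 1) to 2.27 (Zfp318, TPM). They passed in 3 to 5 of the 20 alternatives with a test, with adjusted p from 0.000104 to 1. Of 923 gene values, 7 changed sign: Taf4b (0.15) ranged from -0.056 to 0.336 with a library left out, Stra8 (0.19) was -0.25 with litter date, -0.41 with stage and from -0.002 to 0.435 with a library left out, Sycp3 was -0.38 and Taf7l -0.68 with stage, and Gm23935 was 1.71 with litter date. The median of the elongation list (-0.06) was -0.14 with upper quartile scaling, -0.13 within the January 29 litter, 0.001 and 0.004 in TPM and -0.16 to 0.001 with a library left out. Over all 32 lists, 45 of 669 medians moved by more than the SD of the list's level over the heterozygous libraries. The longest minus shortest length class, 0.06 by exons and 0.05 by span, was 0.30 and 0.24 with litter date and 0.36 and 0.33 within January 29. By longest transcript, added after seeing the data, these were 0.34 and 0.40, and the highest minus lowest class in GC was -0.12 with litter date. The 3 marker lists of stroma, macrophage and erythroid cells had no member at 5 CPM. With 2 wildtype libraries, taking out either leaves a lone sample assumed to vary like the others.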

Other observations

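Immediate-early and dissociation stress genes, which respond within minutes to handling of tissue, were higher in 21 of 27 (median log2 fold change 0.25), with 5 higher and 0 lower at an unadjusted p under 0.05 and none called. Jund, an AP-1 subunit, stood at 39.9, 32.6, 43.4 and 28.4 CPM in heterozygous 1 to 4 against 11.3 and 15.9 CPM in wildtype (log2 fold change 1.41 ± 0.31 SE, adjusted p = 0.243 with 10 libraries and 0.0685 with 6). Mcl1, a short-lived survival protein of the BCL2 family, stood at 161.0, 149.0, 114.1 and 140.3 CPM against 42.6 and 61.2 CPM (log2 fold change 1.44 ± 0.35 SE, adjusted p = 0.243 with 10 libraries and 0.0375 with 6). Neither gene overlapped between the groups. These 2 had the smallest p of the list, in which 6 of 27 were higher without overlap (over all genes, 9.18%). As a list the genes were highest in heterozygous 1 and 3, with a mean log2 CPM of 4.41 and 4.17, against 3.70 and 3.61 in heterozygous 2 and 4 and 3.55 and 3.34 in wildtype. Without heterozygous 1, 14 of the 27 were higher and 13 lower.

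Nuclear-retained noncoding RNAs were higher in 5 of 11 tested. Malat1, a noncoding RNA of nuclear speckles, stood at 114.4, 83.4, 148.8 and 111.1 CPM against 56.3 and 71.2 CPM (log2 fold change 0.84 ± 0.28 SE, adjusted p = 0.338 and 0.327), so all 4 heterozygous libraries were above both wildtype libraries. Among DNA replication genes, 28 of 39 were lower (median -0.14), and Pola1, the catalytic subunit of primase-polymerase alpha, stood at 135.5, 90.5, 95.5 and 102.7 CPM against 158.3 and 167.8 CPM (log2 fold change -0.62 ± 0.19 SE, adjusted p = 0.302 and 0.409).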
